A study of Mus musculus with 9 samples.

Results

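Transcripts of 10 genes of the Sox family of transcription factors, Sox1, Sox2, Sox3, Sox4, Sox5, Sox6, Sox8, Sox9, Sox10 and Sox11, were compared in 3 kinds of cultured mouse neural cells. They were chosen by symbol, and every probe set that the array's annotation names by one of these symbols alone was taken, which gave 37 of the 45037 probe sets tested and 10 of the 18193 genes named on the array. Sox proteins bind DNA through an HMG box, which fits into the minor groove and bends the helix, and most act together with a partner factor bound nearby. The SoxB proteins Sox1, Sox2 and Sox3 mark neural progenitors and hold them in an undifferentiated state, whereas the SoxC proteins Sox4 and Sox11 switch on neuronal genes in newborn neurons. The SoxD proteins Sox5 and Sox6 lack an activation domain of their own and help to specify classes of cortical neurons, and the SoxE proteins Sox8, Sox9 and Sox10 act in glial cells, Sox9 from the progenitor stage on and Sox10 in the oligodendrocyte lineage.

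RNA was measured on 9 Affymetrix arrays, 3 for each of 3 groups, whose replicates A, B and C the labels call biological. The yNSCs were derived from mouse cortical neurons after expression of wild-type YAP from a doxycycline-inducible vector, YAP being a transcriptional coactivator that binds DNA through TEAD factors. Native neural stem cells (NSCs) carried no such vector, and the medium of both kinds of stem cell was DMEM/F12 containing N2, heparin and the growth factors EGF and bFGF. Cortical neurons were kept in Neurobasal with B27 and AraC, a compound that kills dividing cells. Per the study's methods, neurons were taken from late embryos or newborn pups and infected with lentiviruses for the transactivator rtTA and tetO-YAP, and the resulting spheres were routinely passaged without doxycycline. Doxycycline at the time of RNA collection, mouse strain, the source of the NSCs and whether the groups share animals are not given in the sources used here. The medium therefore differs between neurons and both stem cell groups, and medium and cell type cannot be told apart.

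Values are the log2 expression summaries deposited by the authors, 1 per probe set, so that a difference of 1 is a 2-fold change. Array medians lay between 4.9 and 5.01, and a group mean below the mean lower quartile of its arrays (3.49 in yNSCs, 3.43 in NSCs and 3.71 in neurons) is called near background below. NSC replicate A stood apart, as 557 of its probe sets differed more than 2-fold from NSC replicates B and C, where no other array had more than 80. All 5 neuronal markers were lower, and all 4 stem cell and 3 division markers higher, in yNSCs and in NSCs than in neurons. The summed level of 6 microglial markers was 7.39 to 7.42 in yNSCs and 6.32 to 6.38 in NSCs, against 11.83 to 12.32 in neurons, and that of 5 astrocyte markers was 12.43 to 12.64, 11.17 to 11.78 and 12.64 to 12.72 in the same groups, so markers of both glial types were measured in the neuron cultures beside the neuronal ones. In RNA from whole cultures, fewer cells of a type and less RNA per cell cannot be told apart.

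Promoter sequence is shown for Sox2 and Sox1, SoxB genes of which Sox2 was called higher in yNSCs than in neurons and Sox1 was not called, and for Sox4 and Sox11, the SoxC genes, which moved in opposite directions in that comparison. Sox5 and Sox6 did so too, but their RefSeq windows are not shown. RefSeq windows on GRCm38.p6 matched 7 of the 10 genes, all except Sox3, Sox9 and Sox10, and the 250 bases before the transcript start are given, 5′ to 3′ on the strand of the gene. They lie at chr3:34649745-34649994 (Sox2, + strand), chr8:12395269-12395518 (Sox1, + strand), chr13:28953700-28953949 (Sox4, - strand) and chr12:27342719-27342968 (Sox11, - strand). Capitals mark, on either strand, GGAATG (the core bound by TEAD factors), ACAAAG (a core bound by Sox proteins) and CCAAT (the CCAAT box, ATTGG on the other strand).
Sox2: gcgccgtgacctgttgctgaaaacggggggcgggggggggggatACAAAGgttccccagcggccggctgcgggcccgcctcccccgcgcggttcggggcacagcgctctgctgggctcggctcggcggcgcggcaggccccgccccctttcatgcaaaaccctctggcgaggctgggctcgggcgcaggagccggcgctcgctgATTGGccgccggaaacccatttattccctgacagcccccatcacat
Sox1: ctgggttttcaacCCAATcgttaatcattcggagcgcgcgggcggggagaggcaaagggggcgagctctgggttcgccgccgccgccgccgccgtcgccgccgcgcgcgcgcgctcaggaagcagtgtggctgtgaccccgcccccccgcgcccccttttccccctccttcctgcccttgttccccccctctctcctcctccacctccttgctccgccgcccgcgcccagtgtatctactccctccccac
Sox4: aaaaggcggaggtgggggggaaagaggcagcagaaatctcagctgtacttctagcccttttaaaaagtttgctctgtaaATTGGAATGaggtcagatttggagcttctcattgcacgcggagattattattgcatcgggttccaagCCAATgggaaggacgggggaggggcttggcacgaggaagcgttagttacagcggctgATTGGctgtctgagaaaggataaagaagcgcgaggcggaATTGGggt
Sox11: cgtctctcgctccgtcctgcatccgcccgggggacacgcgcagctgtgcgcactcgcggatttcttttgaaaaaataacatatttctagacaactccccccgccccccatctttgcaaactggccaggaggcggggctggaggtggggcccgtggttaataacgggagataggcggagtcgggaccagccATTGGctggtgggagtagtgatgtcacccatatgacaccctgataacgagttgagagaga
The Sox4 window held the only GGAATG match among these 4 windows, which overlaps a CCAAT box in reverse (ATTGGAATG), and 4 CCAAT matches in all. Among the windows not shown, that of Sox5, a gene lower in yNSCs than in neurons, held 2 GGAATG matches. Each Sox6 window held 0 or 1, and that of Sox8 held 0. Sox2 held 1 ACAAAG match, and Sox2, Sox1 and Sox11 held 1 CCAAT match each. Across all 32851 windows of this length, 12.6% held GGAATG, 16.5% ACAAAG and 33.8% CCAAT on either strand. G and C made up 72.0% of the Sox2 window, 71.2% of Sox1, 50.8% of Sox4 and 58.0% of Sox11, against a median of 52.4%. These matches describe letters in a window and say nothing of binding.

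For counts over genes, each gene stands by its probe set of highest mean over the 9 arrays, and none of these 10 was near background in all 3 groups. A probe set was called when its adjusted p (limma, Benjamini-Hochberg over all 45037 probe sets, two-sided) was under 0.05. Between 3 arrays and 3, an exact permutation test cannot give a two-sided p below 0.1, so calls rest on the model fitted across all probe sets. In yNSCs against neurons, 6 of the 10 Sox genes were higher, 3 were lower and 1 was not called, where 28.1% of all probe sets were called higher and 28.1% lower and, with 1 probe set per gene as here, 34.1% and 26.9% of named genes. Native NSCs differed from neurons at every one of the 10, with 9 higher and 1 lower, where 30.5% of all probe sets were called higher and 32.8% lower (32.9% and 33.2% of named genes). Set against NSCs, yNSCs were higher for 0 of the 10 genes and lower for 7, with 3 not called, where 18.1% of all probe sets were called higher and 18.9% lower (20.6% and 17.5% of named genes). The median difference of the 10 genes was 0.67 for yNSCs against neurons, 1.40 for NSCs against neurons and -0.78 for yNSCs against NSCs, beside -0.06, -0.08 and 0.05 over all probe sets and -0.01, -0.07 and 0.07 over named genes. Without NSC replicate A these counts stayed at 6 and 3, 9 and 1, and 0 and 7. The 7 lower in yNSCs than in NSCs became 4 with the mean of each gene's probe sets and 5 at the lowest when another array was left out, and a 2-fold minimum left 3 higher and 1 lower in yNSCs against neurons. The first 2 comparisons share the neuron arrays, and their values are therefore only given side by side.

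**Figure D1:**
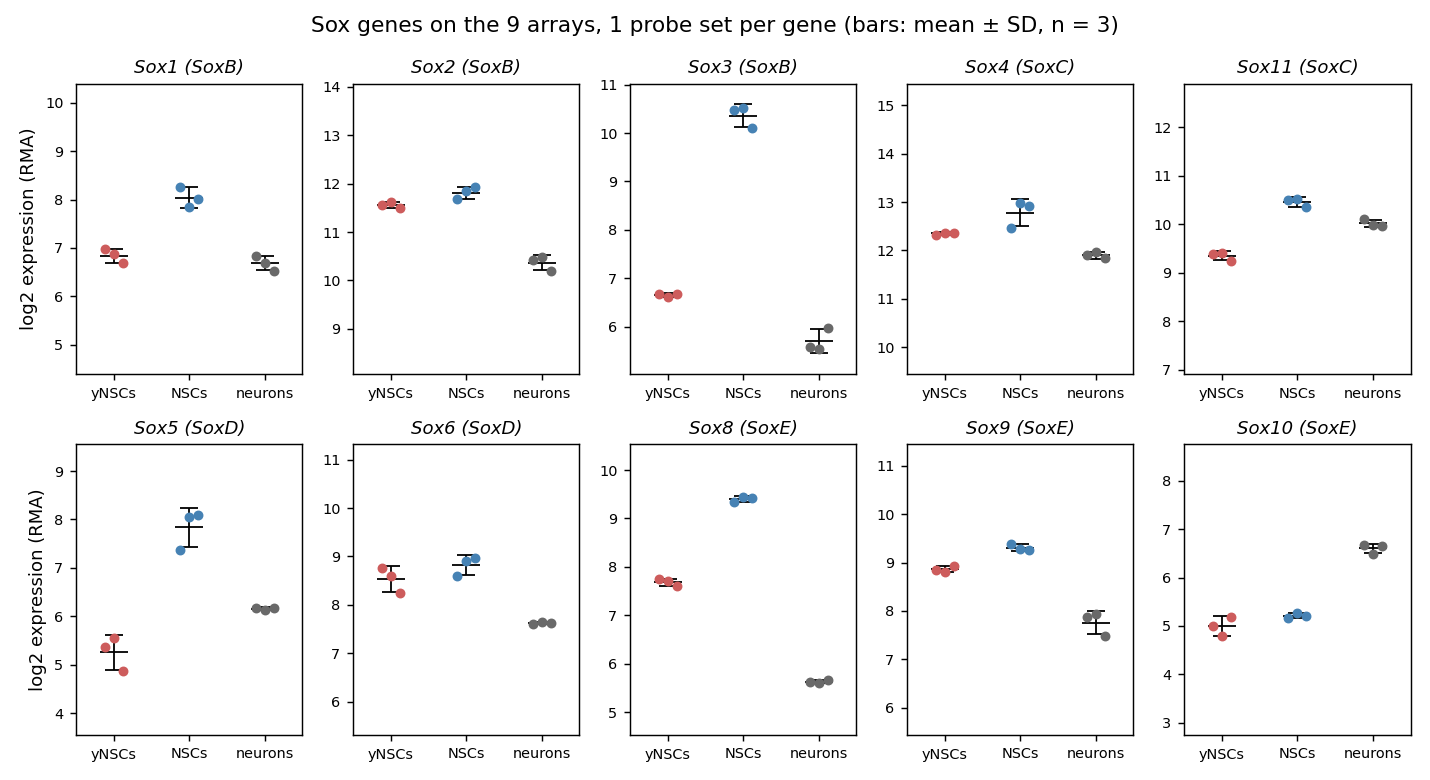
Log2 expression of the 10 Sox genes (vertical axis, the same span but different limits in each panel) on the 9 arrays, with 1 point per array for yNSCs, NSCs and neurons from left to right and bars for mean ± SD (n = 3). NSCs are the highest group for 9 genes, neurons for Sox10, and yNSCs are the lowest group for Sox5, Sox10 and Sox11.

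The SoxB genes were all higher in NSCs than in neurons, and yNSCs were lower than NSCs for Sox1 and Sox3, while Sox2 was not called between them. Sox2, which sustains self-renewal of neural stem cells, measured 11.55, 11.61 and 11.49 in yNSCs and 11.68, 11.84 and 11.92 in NSCs, against 10.42, 10.49 and 10.20 in neurons. Each group was separate from the others, with yNSCs just below NSCs and both well above neurons. Sox2 was 2.27-fold higher in yNSCs than in neurons (difference 1.18, SE 0.114, adjusted p = 2.91e-06) and 2.72-fold higher in NSCs than in neurons (1.44, adjusted p = 4.45e-07). The difference between yNSCs and NSCs was -0.26 and was not called (adjusted p = 0.0964), with a 95% interval, not adjusted for the number of probe sets, of -0.51 to -0.01. Sox2 is measured by 1 probe set, and with a variance trend and a robust prior the same difference of -0.26 was called (adjusted p = 0.0338).

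Read from the probe set that stands for each gene, Sox3 had the widest range of group means of the 10 genes (4.67), while with the mean of each gene's probe sets Sox8 did (3.77, against 2.45 for Sox3). Sox3 levels were 6.68, 6.61 and 6.67 in yNSCs and 10.48, 10.51 and 10.10 in NSCs, against 5.58, 5.53 and 5.98 in neurons. NSCs thus stood far above both other groups, and yNSCs lay above neurons without overlap. Expression was 13.1-fold lower in yNSCs than in NSCs (difference -3.71, SE 0.147, adjusted p = 8.15e-09), 25.4-fold higher in NSCs than in neurons (4.67, adjusted p = 2.01e-10) and 1.94-fold higher in yNSCs than in neurons (0.96, adjusted p = 0.000146). A second Sox3 probe set averaged 5.06 in yNSCs and 5.11 in NSCs, against 4.88 in neurons, and was called in no comparison. With the mean of both probe sets the difference of yNSCs from NSCs was -1.88, that of yNSCs from neurons 0.57 and that of NSCs from neurons 2.45, all 3 still called.

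Sox1, the most narrowly neural of the SoxB genes, separated yNSCs from NSCs as well. It measured 6.97, 6.87 and 6.69 in yNSCs and 8.26, 7.84 and 8.02 in NSCs, against 6.83, 6.70 and 6.53 in neurons. The yNSC arrays overlapped the neuron arrays, and both lay below all NSC arrays. Sox1 was 2.29-fold lower in yNSCs than in NSCs (difference -1.20, SE 0.136, adjusted p = 2.82e-05) and 2.56-fold higher in NSCs than in neurons (1.35, adjusted p = 3.54e-06). Between yNSCs and neurons the difference was 0.16 (95% interval -0.14 to 0.45, adjusted p = 0.352). The other Sox1 probe set, with means of 4.71 in yNSCs and 4.12 in NSCs, against 4.22 in neurons, was called in no comparison. With the mean of both, the difference of yNSCs from NSCs was -0.31 and no longer called (adjusted p = 0.0681), and that of yNSCs from neurons was 0.32 and called (adjusted p = 0.0379).

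**Figure D2:**
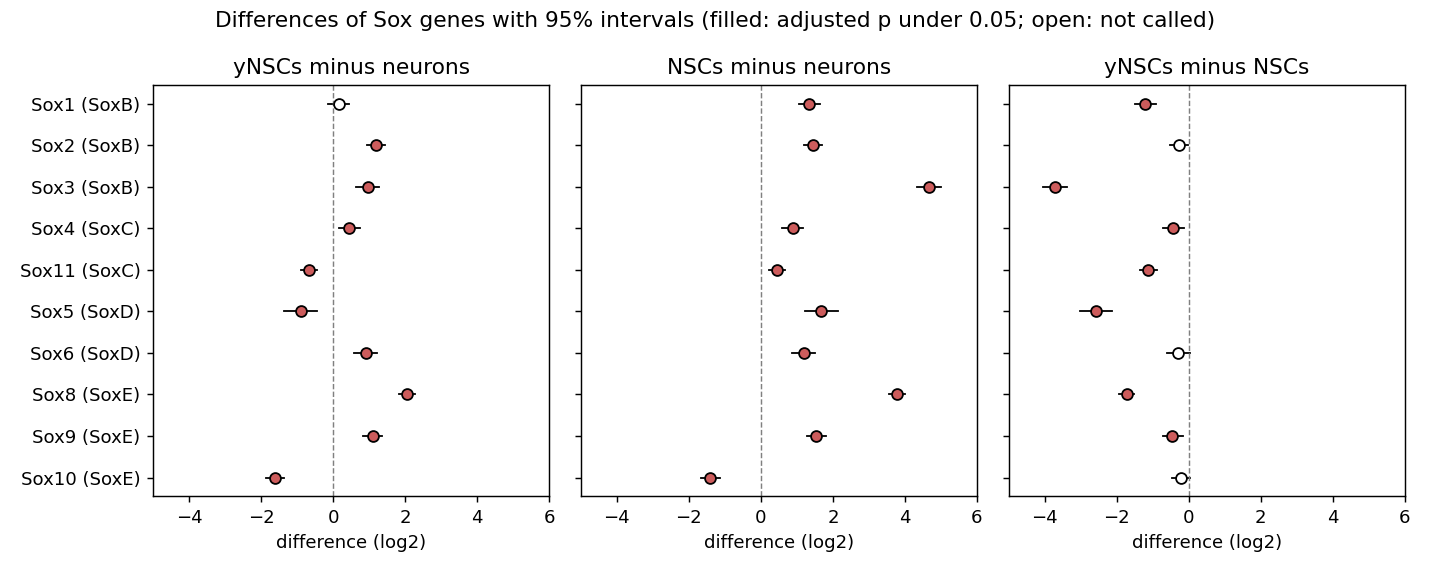
Differences in log2 expression (horizontal axis) of the 10 Sox genes for yNSCs minus neurons, NSCs minus neurons and yNSCs minus NSCs, with 95% intervals that are not adjusted for the number of probe sets. Filled points are called, and in the right-hand panel Sox2, Sox6 and Sox10 are open and all 10 points lie below 0.

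Partner factors of SoxB proteins and other genes of neural progenitors were counted in the same way. Of 14 such genes, 1 was higher in yNSCs than in NSCs, 10 were lower and 3 were not called, with a median difference of -0.93, where 20.6% of all named genes were higher and 17.5% lower. The difference of the list from other genes was not tested. The largest decreases were those of Hes5, a Notch effector that holds back neuronal differentiation (-3.88), the POU factor Pou3f1 (-3.24), the EGF receptor gene Egfr (-2.99) and Chd7, a chromatin remodeller that interacts with Sox2 (-1.83). Nr2e1, an orphan receptor of adult neural stem cells, was the gene that was higher, by 0.63. Pax6 differed by -0.32 and Nes, which encodes nestin, by 0.18, and neither was called. Against neurons, 8 of the 14 were higher in yNSCs and 2 were lower (median 0.52, with 34.1% and 26.9% of named genes), with Nes at 2.12, Notch1 at 1.87, Pax6 at 1.13 and Pou3f1 at -2.75. In NSCs, 11 were higher and 0 lower than in neurons (median 1.60, with 32.9% and 33.2% of named genes), with Egfr at 3.30, Notch1 at 3.27, Hes5 at 3.04 and Chd7 at 2.47.

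**Figure D3:**
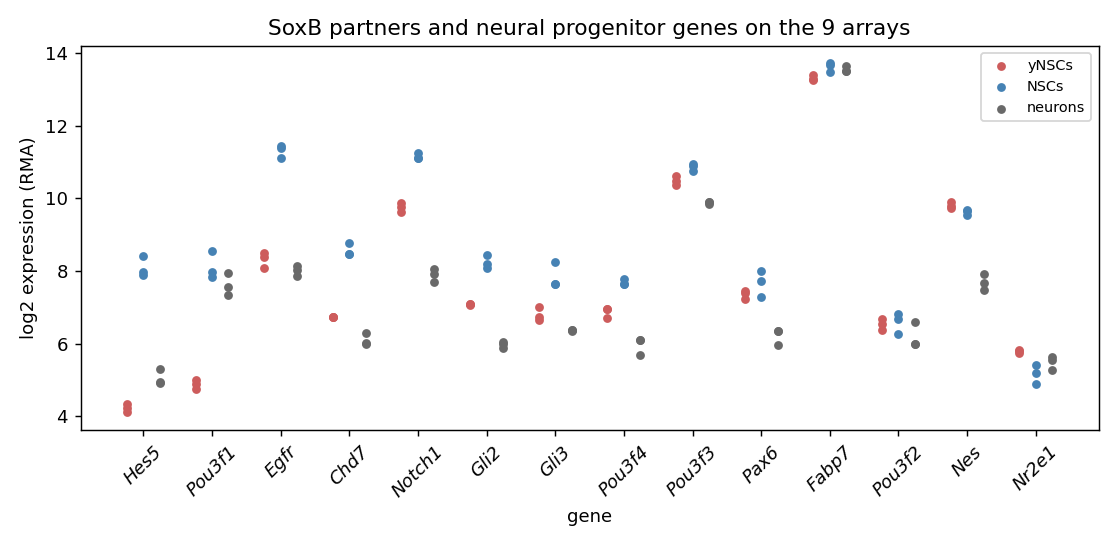
Log2 expression (vertical axis) of 14 SoxB partner and neural progenitor genes on the 9 arrays, 1 point per array, with yNSCs, NSCs and neurons from left to right at each gene and genes ordered by the difference between yNSCs and NSCs. Hes5 and Pou3f1 lie lower in yNSCs than in both other groups, whereas Nes lies at like levels in yNSCs and NSCs and above neurons.

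The 2 SoxC genes moved in opposite directions in yNSCs against neurons. Sox4 measured 12.32, 12.37 and 12.37 in yNSCs and 12.46, 12.97 and 12.92 in NSCs, against 11.90, 11.97 and 11.84 in neurons. The groups did not overlap, although NSC replicate A lay close to the yNSC arrays. Sox4 was 1.37-fold higher in yNSCs than in neurons (difference 0.45, SE 0.134, adjusted p = 0.0133), 1.84-fold higher in NSCs than in neurons (0.88, adjusted p = 0.000122) and 1.35-fold lower in yNSCs than in NSCs (-0.43, adjusted p = 0.0253). The last call was lost when NSC replicate B or C, or any of yNSC replicates A, B and C, was left out (-0.34 to -0.44, adjusted p = 0.0603 to 0.105). Leaving out NSC replicate A gave -0.59.

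Sox4 has 8 probe sets, which did not run together. Against neurons, 5 were higher in yNSCs, 1 lower and 2 not called. Against NSCs, 2 were higher in yNSCs, 3 lower and 3 not called. One probe set averaged 9.36 in yNSCs and 8.02 in NSCs, against 8.30 in neurons, and was higher in yNSCs than in NSCs by 1.33 (adjusted p = 0.000271), the reverse of the probe set that stands for the gene. The other probe set higher in yNSCs was near background in all 3 groups. With the mean of all 8 the difference of yNSCs from NSCs was 0.05 (adjusted p = 0.758). The direction of Sox4 between yNSCs and NSCs therefore depends on the probe set read.

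Sox11 was lower in yNSCs than in either other group at all 6 of its probe sets. The probe set of highest mean read 9.38, 9.41 and 9.25 in yNSCs and 10.51, 10.53 and 10.35 in NSCs, against 10.10, 9.99 and 9.97 in neurons. All 3 groups were separate, with NSCs above neurons and yNSCs below them. Sox11 was 1.59-fold lower in yNSCs than in neurons (difference -0.67, SE 0.104, adjusted p = 0.000148), 2.17-fold lower in yNSCs than in NSCs (-1.12, adjusted p = 5.8e-06) and 1.36-fold higher in NSCs than in neurons (0.44, adjusted p = 0.00277). Its other probe sets differed by -1.20 to -2.83 between yNSCs and NSCs. In NSCs against neurons 5 of the 6 were higher and 1 (-0.14) was not called, and the mean of all 6 gave 1.17 for that comparison and -2.06 for yNSCs against NSCs.

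Of 6 genes linked to SoxC factors, yNSCs had 1 higher and 5 lower than neurons (median -2.05, with 34.1% and 26.9% of named genes). NSCs had 2 higher and 4 lower than neurons (median -1.43, with 32.9% and 33.2% of named genes). The neuronal targets Dcx, which encodes doublecortin, and Tubb3, which encodes beta III tubulin, differed by -7.02 and -6.40 in yNSCs against neurons and by -6.74 and -7.68 in NSCs against neurons. Higher than in neurons were Tead2, a TEAD factor gene, at 2.98 in yNSCs and 4.80 in NSCs, and in NSCs also Prox1, a homeobox gene, at 1.56. Between yNSCs and NSCs, Prox1 (-2.0), Tead2 (-1.82) and Map2 (-1.76) were lower in yNSCs and Tubb3 (1.28) was higher. Sox11 was thus higher and Dcx lower in NSCs than in neurons. Dcx averaged 3.16 in yNSCs, where it was near background, and 3.44 in NSCs, against 10.19 in neurons.

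SoxD genes differed from each other in yNSCs as SoxC genes did. Sox5, which times the birth and migration of deep-layer cortical neurons, measured 5.37, 5.55 and 4.86 in yNSCs and 7.37, 8.05 and 8.09 in NSCs, against 6.18, 6.12 and 6.18 in neurons. No groups overlapped, and yNSCs were the lowest. Sox5 was 5.97-fold lower in yNSCs than in NSCs (difference -2.58, SE 0.207, adjusted p = 1.79e-06), 1.87-fold lower in yNSCs than in neurons (-0.90, adjusted p = 0.00276) and 3.20-fold higher in NSCs than in neurons (1.68, adjusted p = 2.05e-05). Of its 7 probe sets, 4 were lower in yNSCs than in NSCs (-1.80 to -2.58), and the other 3 (-0.17 to -0.33) were not called. None was higher. Against neurons, 4 of the 7 were lower in yNSCs and 4 were higher in NSCs, with 3 not called in each case. With the mean of all 7 the differences were -1.41 for yNSCs against NSCs, -0.47 for yNSCs against neurons and 0.94 for NSCs against neurons.

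Sox6, which specifies interneurons born in the medial ganglionic eminence, was higher in both stem cell groups than in neurons. It measured 8.76, 8.59 and 8.24 in yNSCs and 8.59, 8.91 and 8.97 in NSCs, against 7.61, 7.65 and 7.63 in neurons. The yNSC and NSC arrays overlapped, and both groups lay above every neuron array. Sox6 was 1.87-fold higher in yNSCs than in neurons (difference 0.90, SE 0.146, adjusted p = 0.000226) and 2.29-fold higher in NSCs than in neurons (1.19, adjusted p = 1.97e-05). The difference between yNSCs and NSCs was -0.29 (95% interval -0.61 to 0.03, adjusted p = 0.147). Its 4 probe sets split on that comparison. Besides the one that stands for the gene, 2 were lower in yNSCs (-0.46 and -0.44), and the remaining one, with means of 5.49 in yNSCs and 4.70 in NSCs, was higher by 0.78 (adjusted p = 0.000558). Relative to neurons, 3 of the 4 were higher in yNSCs and all 4 in NSCs. The one not called averaged 7.89 in yNSCs and 7.77 in neurons (difference 0.12, adjusted p = 0.421).

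Genes of cortical neuron classes in whose specification SoxD factors take part were mostly low in both stem cell groups. Against neurons, 2 of the 12 measured were higher and 10 lower in yNSCs (median -2.44, with 34.1% and 26.9% of named genes). In NSCs, 1 was higher and 10 lower than in neurons (median -2.50, with 32.9% and 33.2% of named genes). The interneuron peptide gene Sst stood at -5.81 in yNSCs and -5.85 in NSCs, the interneuron factor Lhx6 at -3.21 and -3.14, and Fezf2, which specifies subcerebral projection neurons, at -3.09 and -3.52. Going the other way were Pvalb, at 2.34 in yNSCs and -0.13 (not called) in NSCs, and Tle4, at 0.69 and 2.92. Between yNSCs and NSCs, 3 were higher in yNSCs, 2 were lower and 7 were not called (median 0.16, with 20.6% and 17.5% of named genes). In that comparison Pvalb (2.47) and the homeobox gene Dlx1 (1.76) were higher and Tle4 (-2.22) and Bcl11b (-1.61) lower. Cartilage genes, the best known joint targets of Sox5, Sox6 and Sox9 outside the brain, gave 0 higher and 2 lower of 6 in yNSCs against neurons, 0 and 3 in NSCs against neurons, and 0 called in yNSCs against NSCs. The shares of named genes higher and lower in these comparisons were 34.1% and 26.9%, 32.9% and 33.2%, and 20.6% and 17.5%. Hapln1, which encodes a link protein of the extracellular matrix, stood at -5.11 in yNSCs and -5.32 in NSCs against neurons and was near background in both, and Col2a1, the type II collagen gene, stood at -0.72 and -0.88.

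**Figure D4:**
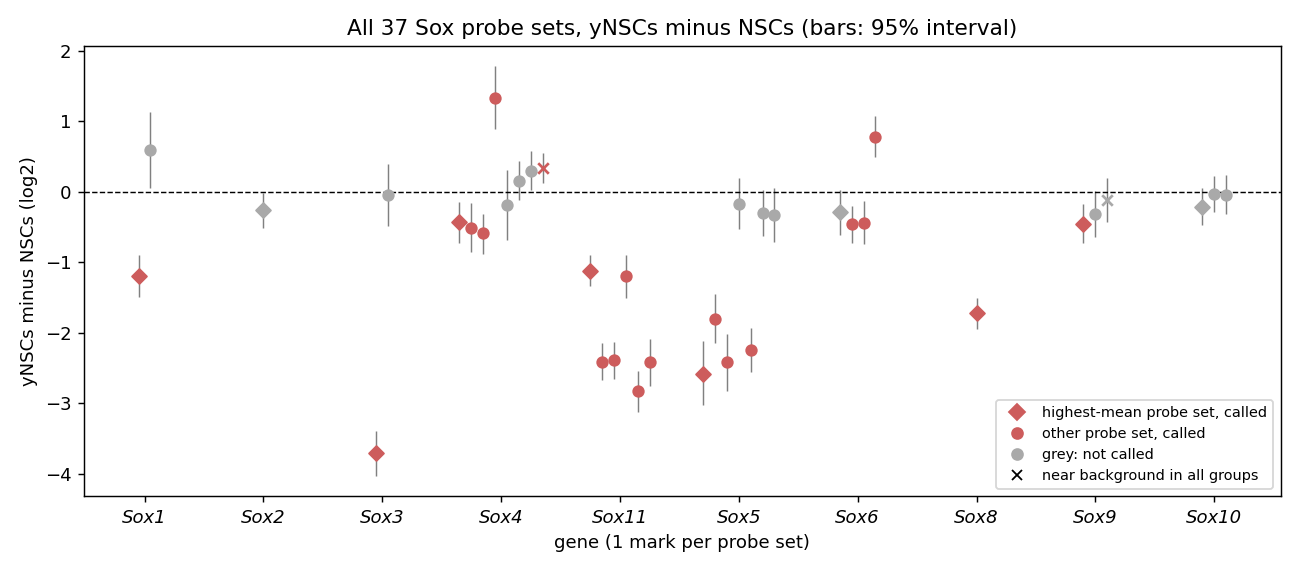
Difference in log2 expression between yNSCs and NSCs (vertical axis, yNSCs minus NSCs) for all 37 Sox probe sets, grouped by gene, with 95% intervals not adjusted for the number of probe sets. Red marks are called, diamonds stand for the gene and crosses are near background in all groups, and of 37 marks 19 are called lower and 3 higher, the 3 being 2 of Sox4 and 1 of Sox6.

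Among the SoxE genes, Sox8 and Sox9 were higher in both stem cell groups than in neurons and Sox10 was lower. Sox8, which acts with Sox9 and Sox10 in oligodendrocyte development, measured 7.74, 7.70 and 7.60 in yNSCs and 9.33, 9.45 and 9.43 in NSCs, against 5.63, 5.60 and 5.66 in neurons. The groups lay far apart, with yNSCs near the middle. Sox8 was 4.14-fold higher in yNSCs than in neurons (difference 2.05, SE 0.0969, adjusted p = 5.81e-09), 13.7-fold higher in NSCs than in neurons (3.77, adjusted p = 4e-11) and 3.30-fold lower in yNSCs than in NSCs (-1.72, adjusted p = 1.08e-07). Sox8 is measured by 1 probe set.

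Sox9, which makes neural progenitors competent to form glia and is kept on in astrocytes, measured 8.84, 8.81 and 8.93 in yNSCs and 9.39, 9.28 and 9.25 in NSCs, against 7.87, 7.93 and 7.49 in neurons. No groups overlapped, and the step from neurons to yNSCs was the wider one. Sox9 was 2.14-fold higher in yNSCs than in neurons (difference 1.10, SE 0.126, adjusted p = 1.32e-05), 2.91-fold higher in NSCs than in neurons (1.54, adjusted p = 5.99e-07) and 1.36-fold lower in yNSCs than in NSCs (-0.45, adjusted p = 0.0152). The call against NSCs was lost without yNSC replicate B (-0.42, adjusted p = 0.0567) and with the mean of the gene's 3 probe sets (-0.29, adjusted p = 0.0695). A second probe set gave 1.58, 1.90 and -0.32 for the 3 comparisons, the last of them not called, and the third was near background in all groups.

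Sox10, the SoxE factor needed for oligodendrocyte differentiation, was the one member lower in NSCs than in neurons. It measured 5.0, 4.80 and 5.19 in yNSCs and 5.16, 5.26 and 5.20 in NSCs, against 6.67, 6.49 and 6.65 in neurons. The stem cell groups overlapped each other, and every one of their arrays lay below every neuron array. Sox10 was 3.05-fold lower in yNSCs than in neurons (difference -1.61, SE 0.119, adjusted p = 2.71e-07) and 2.63-fold lower in NSCs than in neurons (-1.40, adjusted p = 8.33e-07). Between yNSCs and NSCs it differed by -0.21 (95% interval -0.47 to 0.05, adjusted p = 0.203). All 3 probe sets were lower than in neurons in both stem cell groups, and 0 of the 3 was called between yNSCs and NSCs. With the mean of the 3 the differences from neurons were -0.94 for yNSCs and -0.85 for NSCs.

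Oligodendroglial genes linked to SoxE factors were called in both directions against neurons. Against neurons, 4 of the 11 measured were higher and 3 lower in yNSCs (median -0.13), near the shares of all named genes (34.1% and 26.9%), and 5 were higher and 3 lower in NSCs (median -0.08, with 32.9% and 33.2% of named genes). Against NSCs, 0 were higher and 4 lower in yNSCs (median -0.10, with 20.6% and 17.5% of named genes). The early lineage genes Olig2 (1.97 in yNSCs and 2.70 in NSCs) and Nkx2-2 (2.71 and 3.93) were higher than in neurons, whereas the precursor receptor gene Pdgfra (-5.57 and -2.46) and the myelin gene Mbp (-2.55 and -2.37) were lower. Cnp, another gene of myelinating cells, was higher than in neurons (1.56 and 1.26). Pdgfra (-3.12), Cspg4 (-2.20), Nkx2-2 (-1.22) and Olig2 (-0.73) were the 4 genes lower in yNSCs than in NSCs. Summed over 3 measured oligodendrocyte markers, levels were 5.58 to 6.01 in yNSCs and 5.55 to 5.76 in NSCs, against 7.25 to 7.55 in neurons. Of these 3, Mbp was lower in both stem cell groups, Mag was lower in NSCs only and Mog was near background in every group. The sum of 4 oligodendrocyte precursor markers was 13.08 to 13.11 in yNSCs and 13.3 to 13.51 in NSCs, against 12.08 to 12.11 in neurons, but its members split, with Olig1 and Olig2 higher and Pdgfra and Cspg4 lower in yNSCs than in neurons. The part of other cells in the neuron cultures in the Sox10 result was not tested.

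Among astroglial genes linked to SoxE factors, Gfap and Aqp4 stood far higher in yNSCs than in NSCs. Of the 8 genes, yNSCs had 4 higher and 2 lower than NSCs (median 0.70, with 20.6% and 17.5% of named genes). They had 4 higher and 1 lower (2 lower without NSC replicate A) than neurons (median 0.23, with 34.1% and 26.9% of named genes). NSCs had 3 higher and 4 lower than neurons (median -0.76, with 32.9% and 33.2% of named genes). Gfap, the intermediate filament of astrocytes, was higher in yNSCs than in NSCs by 5.42 and than in neurons by 1.61. Aqp4, the astrocyte water channel, was higher in yNSCs than in NSCs by 4.83. Its difference of yNSCs from neurons, -0.82, was not called, although all yNSC arrays (9.78 to 9.82) lay below all neuron arrays (10.42 to 10.76). The spread behind that call (SE 0.483) is shared by all groups and so takes in the NSC arrays. NSC replicate A read 3.40 for Aqp4, below 5.62 and 5.90 in replicates B and C, and without it yNSCs were higher than NSCs by 4.04 (16.4-fold in place of 28.4-fold). The gliogenic factor Nfia, which acts with Sox9, was lower in yNSCs than in NSCs by 1.69 on the log2 scale. Sox9 itself was not higher in yNSCs than in NSCs at any of its 3 probe sets, of which 1 was near background in all groups. Whether Sox9 bears on the levels of these genes was not tested.

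The position of yNSCs between neurons and NSCs differed among members of the same subgroup. Taking the neuron mean as 0% and the NSC mean as 100%, yNSCs lay at 81.8% for Sox2 but at 20.5% for Sox3 and 11.6% for Sox1. For the SoxE genes they lay at 54.3% (Sox8), 71.1% (Sox9) and 115% (Sox10, where the step from neurons to NSCs is a decrease). Sox4 lay at 51.1% and Sox6 at 75.4%. Sox11 at -152% and Sox5 at -53.7% lay outside the range, on the far side of neurons from NSCs. These values are a description with no test. With the mean of each gene's probe sets Sox1 moved to 51.3%, Sox4 to 114% and Sox11 to -76.9%, and leaving out 1 array moved Sox1 between 6.14% and 17.2%.

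All probe sets considered, 13 of the 37 were higher, 14 lower and 10 not called in yNSCs against neurons, beside 28.1% and 28.1% of all probe sets. NSCs against neurons gave 23, 5 and 9 (30.5% and 32.8% of all probe sets were higher and lower), and yNSCs against NSCs gave 3, 19 and 15 (18.1% and 18.9%). Probe sets of 1 gene are not independent of each other. Only 2 of the 37, 1 of Sox4 and 1 of Sox9, were near background in all 3 groups.

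Another 10 Sox genes are measured on the array. In yNSCs against neurons 3 were higher and 0 lower, where 34.1% of named genes were higher and 26.9% lower. NSCs against neurons gave 3 higher and 2 lower (32.9% and 33.2% of named genes). For yNSCs against NSCs, 1 was higher and 3 lower (20.6% and 17.5% of named genes). Without NSC replicate A the last 2 comparisons gave 2 higher and 2 lower, and 1 higher and 2 lower. The one higher in yNSCs than in NSCs was Sox7, a SoxF gene best known from endothelial cells, which measured 7.18, 7.03 and 6.67 in yNSCs and 4.11, 3.98 and 3.99 in NSCs, against 5.16, 4.50 and 4.70 in neurons. All yNSC arrays lay above all others. Sox7 was 7.64-fold higher in yNSCs than in NSCs (difference 2.93, adjusted p = 1.68e-07) and 4.51-fold higher in yNSCs than in neurons (2.17, adjusted p = 5.53e-07), while its second probe set was near background in all groups. Sox21, a SoxB gene that counters Sox1, Sox2 and Sox3, had differences of the same sign as theirs, although not all of theirs were called. It stood at 0.59 in yNSCs against neurons, 1.86 in NSCs against neurons and -1.27 in yNSCs against NSCs. Sox12, a further SoxC gene, stood at -0.25 (not called), 0.41 and -0.67, and Sox13, a further SoxD gene, at 0.64, 1.05 and -0.41, in the same order. Another Sox12 probe set was called in each comparison, at -0.67 (limma adjusted p = 0.000947), 0.53 and -1.21. The remaining Sox12 probe set was near background in all groups. Whether Sox12 differs between yNSCs and neurons therefore depends on the probe set read.

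For the member of each subgroup whose group means ranged most widely, the named genes of most similar pattern were found by the root mean square difference of log2 values over the 9 arrays after centring each gene on its mean. Closest to Sox3 were Calcrl (0.298), Efs (0.308) and Bcas1 (0.348). Sox11 lay closest to Fam117b (0.0663), Tmem131 (0.0757) and Ssbp3 (0.0824), and Sox5 to Glcci1 (0.152), Bmpr1b (0.159) and Bmper (0.179). Those nearest to Sox8 were Pik3r3 (0.134), Spin4 (0.137) and Rfx4 (0.151). Calcrl, at 1.08 in yNSCs against neurons, 5.14 in NSCs against neurons and -4.06 in yNSCs against NSCs, followed the same order of groups as Sox3. The distance is smaller for genes that vary less, so it is not compared between members.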

How the data were processed

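Total RNA of 9 cultures (3 yNSC, 3 NSC, 3 neuron) was labelled with biotin and hybridized to Affymetrix arrays. Files hold log2 values, 1 per probe set, which the authors obtained with RMA and deposited. The RMA version and the arrays normalized together are not given in the sources used here. Values were used without further scaling, and depth is unknown.

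Of 45101 probe sets, 64 controls were left out. GEO's platform annotation named 34945 of the rest by 1 symbol (34741 matched a RefSeq table on GRCm38.p6) and 932 by several, and 9160 are unnamed here. Using limma 3.58.1 in R 4.3.3 (lmFit, eBayes), 3 group means were estimated together from the 9 arrays, with 6 residual and 5.33 prior degrees of freedom, Benjamini-Hochberg adjustment over 45037 probe sets and no minimum fold change. The fit was tested on simulated data. From each gene list, up to 4 called and up to 2 not called genes of largest difference per comparison could be named. Nr2e1, Prox1 (NSCs against neurons), Pvalb and Tle4 (both against neurons), Cnp, Olig1, Cspg4 and Mag were added after their values were seen. Leaving out NSC replicate A for the lists and Aqp4, and other settings for the position of yNSCs, were also chosen after seeing the data. Members and lists were chosen with earlier results of these data known. Alternative settings blocked on the replicate letter, fitted only the 6 arrays compared, used 1 probe set or the probe set mean for a gene, left out the 40% of lowest mean or each array in turn, normalized by quantiles, centred on the median, used a variance trend and robust prior, or set a 2-fold minimum.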

Additional observations from a re-analysis of the deposited data

How the results depend on the processing

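Over 18 alternatives and 3 comparisons, 520 of 540 differences of the 10 Sox genes kept their side of the threshold and their direction, apart from that of Sox1 in yNSCs against neurons, which is not called and read -0.13 after quantile normalization. Of the others 17 lost the call, 2 gained it and 1 lost it with a change of sign. Several settings could change a call but not a difference, so a kept direction under them shows nothing. They were replicate block, the 6 arrays compared, 1 probe set per gene, low means left out, variance trend and 2-fold minimum. Leaving out an array also could not change the difference between the other groups. With a gene read as the mean of its probe sets, 4 Sox genes were lower in yNSCs than in NSCs in place of 7, and Sox4 changed sign there (0.05, adjusted p = 0.758). With a 2-fold minimum, yNSCs against neurons gave 3 higher and 1 lower. Leaving out each array in turn gave 5 to 7 lower in yNSCs than in NSCs, with NSC replicates B and C and yNSC replicates A, B and C deciding Sox4 and yNSC replicate B deciding Sox9, and left the other 5 counts as they were (6 higher and 3 lower, 9 higher and 1 lower, and 0 higher). Arrays of the same replicate letter showed little correlation of their deviations from the group means (-0.111 to 0.072). This cannot show whether cultures of the same letter are related. With the replicate block the counts were 6 higher and 3 lower in yNSCs against neurons, 9 and 1 in NSCs against neurons, and 0 and 7 in yNSCs against NSCs. Quantile normalization moved the median of all probe sets in NSCs against neurons by 0.11. Probe sets near background and the small number of arrays limit what differences of low genes can show.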

Other observations

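Sox2ot, the long noncoding RNA gene whose transcript spans Sox2, did not follow Sox2. It averaged 6.84 ± 0.16 in yNSCs and 5.64 ± 0.15 in NSCs, against 6.56 ± 0.19 in neurons (SD, n = 3 arrays each, 1 probe set). It was lower in NSCs than in neurons (difference -0.92, limma adjusted p = 8.1e-05) and higher in yNSCs than in NSCs (1.20, adjusted p = 2.45e-05), and between yNSCs and neurons the difference of 0.28 was not called (adjusted p = 0.097). Sox6os, the antisense transcript at Sox6, averaged 3.77 in yNSCs and 3.88 in NSCs, against 3.98 in neurons, and was called in no comparison.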
